A study of Mus musculus with 48 samples.

Results

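The LIF, JAK and STAT3 pathway was followed at 10 of its genes through 4 groups of nascent RNA libraries from mouse embryonic stem cells. These genes, chosen by name, are 10 of the 55376 genes in the count matrix. They are the receptor genes Lifr and Il6st, the kinase gene Jak1, the transcription factor gene Stat3, and Socs3, Pim1, Pim3, Bcl3, Sbno2 and Cish, which are known as genes that STAT factors switch on. The cells were TCF2.2, a C57BL/6 stem cell line grown without serum in 2i medium, which holds inhibitors of the kinases MEK and GSK3. The labels do not say whether LIF was in the medium.

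There were 8 libraries, 2 in each group, and in all of them cells took up 4-thiouridine (500 µM, 5 min), by which the newly made RNA was captured. One pair of groups received BRM014, an inhibitor of the chromatin remodelling ATPases BRG1 and BRM, at 10 µM or its solvent DMSO for 3 h. The other pair carried a lentivirus with an shRNA to Chd4, which encodes an ATPase of the NuRD complex, or with a scrambled shRNA, and spent 24 h in 1.5 µg/mL puromycin. The labels call the libraries biological duplicates of a single cell line, so p-values measure the spread within 1 line.

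LIF binds a receptor made of LIFR and gp130, the product of Il6st, and JAK kinases held on that receptor phosphorylate STAT3. Phosphorylated STAT3 enters the nucleus and binds DNA, and in mouse embryonic stem cells this signal is known to support self-renewal. SOCS3 binds the receptor complex and limits the signal, so the pathway switches on its own inhibitor.

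STAT proteins are known to bind the palindrome TTCNNNGAA, which reads the same on both strands. Promoter sequences from RefSeq (build GRCm38.p6, 250 bases before to 50 bases after each annotated start) were found for 10 of the 10 genes. Socs3, Sbno2 and Cish held the palindrome, that is 3 of 10 genes. Among all genes with such a sequence, 2582 of 27025 held it (9.55%), and among expressed genes as defined below 337 of 4520 did (7.46%). Counted by sequence, 2726 of 32851 promoter windows held it (8.3%). A match describes the letters only, and no binding was measured here. All of the matches lie inside the gene spans of the count matrix, given below, which start further upstream than these RefSeq starts. In Cish the pair lies at and just after the RefSeq start. The matches are shown with the palindrome in capitals and 10 flanking bases on each side (5 in Cish), because they set Socs3 apart from Pim1 and Pim3, whose windows hold none. The Socs3 stretch lies at chr11:117969502-117969530 on the minus strand, the Sbno2 stretches, from the middle and the most upstream of its 3 annotated starts, at chr10:80101193-80101221 and chr10:80102710-80102738 on the minus strand, and that with the neighbouring pair in Cish at chr9:107296654-107296683 on the plus strand.
Socs3: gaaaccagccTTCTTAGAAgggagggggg
Sbno2, middle start: ccggctctgcTTCCCGGAAtgcctgtgag
Sbno2, most upstream start: gccgcgccccTTCGCAGAAgcggaagtgc
Cish: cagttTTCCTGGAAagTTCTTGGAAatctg

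Pim1 and Pim3, 2 kinase genes that moved together in the comparison of shRNAs below, have GC-rich sequences before their starts, as other members do. That of Pim1 (chr17:29490535-29490752, plus strand) is 83% G and C, and that of Pim3 (chr15:88861944-88862185, plus strand) 67.4%. The share before the start is 67.7% in Bcl3, 66% in Il6st, 60.8% in Stat3 and 57.6% in Jak1, so it does not set Pim3 apart. Over whole windows of 300 bases, the highest share was 81.3% in both Pim1 and Lifr, and Socs3 had 73.3%. Pim1 therefore does not stand alone either. The stretches of Pim1 and Pim3 are printed in lower case throughout because neither holds the palindrome. They end at the gene start of the count matrix, unlike the stretches shown above.
Pim1: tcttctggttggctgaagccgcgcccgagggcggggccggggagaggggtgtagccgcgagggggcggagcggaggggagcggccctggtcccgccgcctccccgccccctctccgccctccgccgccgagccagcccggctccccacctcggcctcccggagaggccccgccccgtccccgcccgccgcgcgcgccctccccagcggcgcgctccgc
Pim3: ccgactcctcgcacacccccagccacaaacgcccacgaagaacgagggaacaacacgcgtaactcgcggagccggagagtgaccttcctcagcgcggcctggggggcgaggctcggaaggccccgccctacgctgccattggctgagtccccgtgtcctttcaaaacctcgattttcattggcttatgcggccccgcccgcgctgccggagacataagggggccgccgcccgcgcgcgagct

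Total gene counts ran from 6982354 to 17128981 per library and were lowest in both libraries labelled Chd4 shRNA. Those libraries also held a higher background: odorant and pheromone receptor genes (Olfr and Vmn), silent in most tissues, had 6.80 and 7.23 counts per kb of exon there and 1.33 to 2.69 in the other 6. Nascent Chd4 RNA was not lower in the libraries labelled Chd4 shRNA (counts of 730 and 760) than in the scrambled ones (806 and 618). Its fitted log2 fold change was 0.57 ± 0.16 (SE, adjusted p = 0.00535, edgeR). An shRNA acts on finished RNA, and these counts are of newly made RNA, so they cannot tell whether the knockdown worked. Smarca4, which encodes BRG1, had 427 to 913 counts and Smarca2, which encodes BRM, 36 to 148. Smarca4, not the target of the shRNA, had a log2 fold change of 0.59 ± 0.16 in the comparison of shRNAs (adjusted p = 0.00540, edgeR). All 8 pluripotency markers examined lay over 3-fold above background in every library. Their summed level, in counts per kb of exon per 1000000 scaled counts, was 3224 to 4275 in DMSO and 3664 to 4002 in BRM014. It was 3338 to 3568 in scrambled and 2139 to 2308 in the libraries labelled Chd4 shRNA. In 5 lists of markers of other cell types at most 1 gene per list passed that level, and none was at 0 throughout a group. The summed level of 7 fibroblast markers, for example, was 9.85 to 11.4 in the libraries labelled Chd4 shRNA and 0.927 to 1.73 elsewhere. Such sums include the background, and 0 of these 7 markers lay over 3-fold above it in any library. The sum of 4 blood and immune markers was 15.7 to 18.1 in the libraries labelled Chd4 shRNA and 5.74 to 8.46 in scrambled. It was 13.4 to 14.9 in DMSO and 16.0 to 16.3 in BRM014.

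For this reason the main test was made among 8254 expressed genes, those with a mean count 10-fold or more above what the receptor-gene background gives for their exon length. Fold changes are relative to the typical expressed gene, and calls rest on edgeR's quasi-likelihood test with Benjamini-Hochberg adjustment (adjusted p under 0.05). Stat3, Socs3, Pim1 and Pim3, at 12.9-fold, 66.8-fold, 31.1-fold and 57.0-fold above background, were among the expressed genes. Bcl3 (9.27-fold), Lifr (8.57-fold), Jak1 (7.02-fold), Sbno2 (6.90-fold) and Il6st (6.66-fold) fell short of 10-fold, and Cish (1.21-fold) lay at background. Those 6 were tested among all 35426 genes past edgeR's default filter, with the same library sizes. For 5 of them the fit was repeated with background subtracted, among 17626 genes over 3-fold above background. Filters on the mean favour genes that are high in some group, so the 4 expressed members do not stand for all 10.

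Levels are given as counts per kb of exon per 1000000 scaled counts, which allows genes to be compared, and the lower-numbered library of each pair stands first. The genes lie on mm10 at chr11:100885098-100939540 (Stat3), chr11:117966079-117970047 (Socs3), chr17:29490753-29496112 (Pim1), chr15:88862186-88865726 (Pim3), chr15:7090614-7197489 (Lifr), chr13:112464070-112510086 (Il6st), chr4:101152367-101265282 (Jak1), chr10:80056992-80105571 (Sbno2), chr7:19808462-19822770 (Bcl3) and chr9:107296026-107302784 (Cish). The median expressed gene stood at 7.24 in DMSO, 7.33 in BRM014, 7.46 in scrambled and 7.54 in the libraries labelled Chd4 shRNA.

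**Figure D1:**
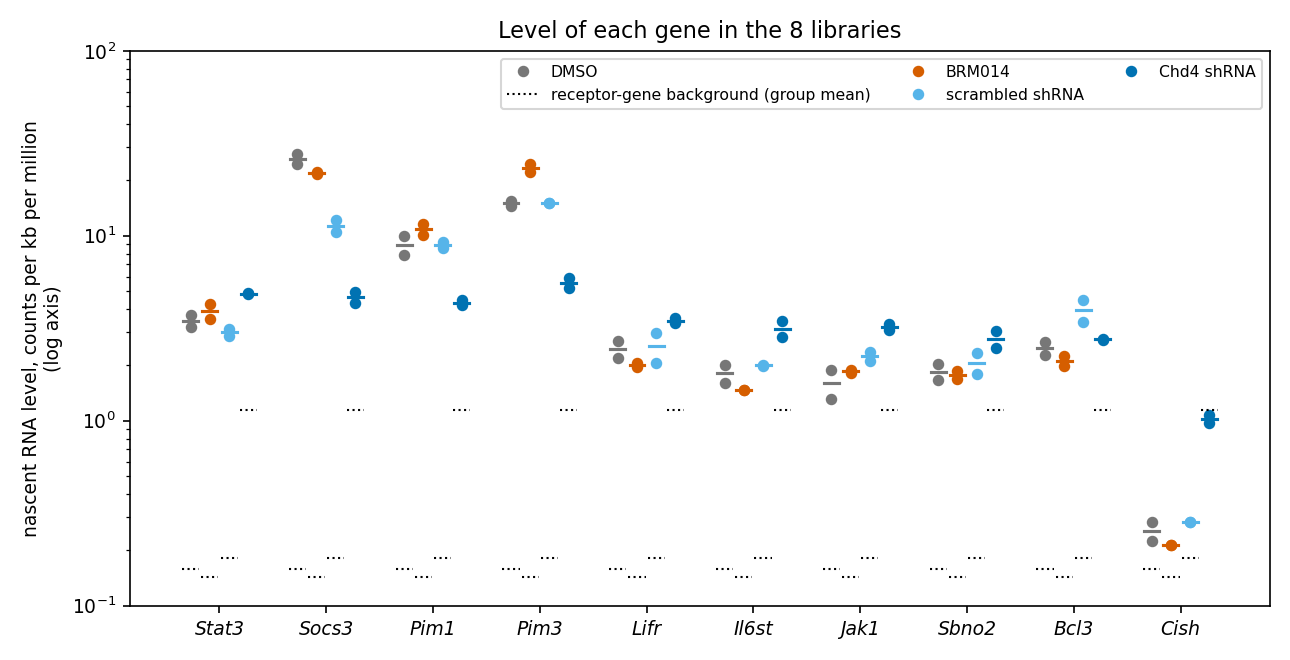
Level of each gene in the 8 libraries, in counts per kb of exon per 1000000 scaled counts on a log axis; points are libraries, solid bars group means and dotted bars the receptor-gene background. Socs3 and Pim3 are the most abundant members in the DMSO, BRM014 and scrambled groups, and in the libraries labelled Chd4 shRNA the members lie much closer together and closer to background.

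After 3 h of BRM014, Pim3 was higher and no other member passed the test. Of the 4 expressed members 1 was called higher and 0 lower, beside 3.1% higher and 4.59% lower among all expressed genes. Of all 10 members among the genes past the default filter, 1 was higher and 0 lower, beside 0.723% and 2.09% of those genes. The median log2 fold change was 0.22 over the 4 expressed members and 0.01 over all expressed genes.

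Pim3, a serine/threonine kinase of the PIM family known to promote survival and growth, stood at 14.5 and 15.5 in DMSO and at 24.4 and 22.1 in BRM014. Both BRM014 libraries were above both DMSO libraries. Alone, such a separation of 2 libraries from 2 gives an exact permutation p of 0.333, for this gene and the members below. In these bulk libraries a change in the cells present and a change in RNA per cell cannot be told apart. The rise was 1.55-fold (0.63 ± 0.12 on the log2 scale, SE, 2 libraries in each group, adjusted p = 0.00151 in edgeR). Without BRM014 library 1 it was 0.56 with an adjusted p of 0.0513, and with library sizes from the ERCC spike-in RNAs no expressed member was called, although the Pim3 change was 0.75 with TMM scaling and 0.62 with plain sums.

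Pim1, the related kinase gene, did not pass the test. Its levels were 7.83 and 9.96 in DMSO and 11.6 and 10.1 in BRM014, groups that did not overlap but whose nearest libraries were almost level. The log2 fold change was 0.28 ± 0.13 (adjusted p = 0.222, edgeR), and it passed only when DMSO library 2 was left out (0.47, adjusted p = 0.0170).

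Stat3 and Socs3 did not pass the test either. Stat3 stood at 3.21 and 3.72 in DMSO and at 4.26 and 3.55 in BRM014, with overlapping groups and a log2 fold change of 0.17 ± 0.13 (adjusted p = 0.519, edgeR). Socs3, the feedback inhibitor, stood at 24.3 and 27.8 in DMSO and at 22.2 and 21.5 in BRM014. Its groups did not overlap, and its log2 fold change was -0.26 ± 0.13 (adjusted p = 0.255, edgeR).

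The receptor and kinase genes were at low levels in both groups. Lifr stood at 2.20 and 2.71 in DMSO and 2.06 and 1.95 in BRM014, a log2 fold change of -0.29 ± 0.15 (adjusted p = 0.397, edgeR). Il6st stood at 1.59 and 2.01 against 1.46 and 1.46, a log2 fold change of -0.31 ± 0.15 (adjusted p = 0.343, edgeR). For both receptor genes the BRM014 libraries were below both DMSO libraries, a separation that is weak evidence with 2 against 2, and neither change passed. Jak1 stood at 1.31 and 1.89 in DMSO and at 1.88 and 1.82 in BRM014, so its groups overlapped (0.21 ± 0.16, adjusted p = 0.630, edgeR).

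The low target genes showed no called change either. Sbno2, which encodes a transcriptional co-regulator of the strawberry notch family, had a log2 fold change of -0.06 ± 0.15, and Bcl3, an atypical IκB protein that works with NF-κB subunits, one of -0.23 ± 0.18. Their adjusted p were 0.916 and 0.644 (edgeR). Cish, another SOCS-family inhibitor, had 17 and 24 counts in BRM014 and 23 and 32 in DMSO. Background alone would give 62.3% of its mean count in DMSO and 67.7% in BRM014, so most of its count cannot be told from background.

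The libraries labelled Chd4 shRNA differed from the scrambled ones at all 4 expressed members. Socs3, Pim1 and Pim3 were lower and Stat3 was higher, beside 20.5% lower and 19.4% higher among all expressed genes. The median over the 4 was -1.16 on the log2 scale, against -0.01 over all expressed genes.

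Pim3 fell most. It stood at 15.0 and 14.9 in the scrambled libraries, and at 5.25 and 5.92 in those labelled Chd4 shRNA. The level fell to 0.373 of the scrambled one, a log2 fold change of -1.42 ± 0.16 (adjusted p = 2.87e-07, edgeR). This call held in all 20 other settings run for it, between -2.76 and -0.81.

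Socs3 stood at 10.5 and 12.2 in the scrambled libraries and at 4.35 and 4.97 in those labelled Chd4 shRNA. It fell to 0.412 of the scrambled level (log2 fold change -1.28 ± 0.17, adjusted p = 3.00e-06, edgeR). Pim1 stood at 8.55 and 9.30 against 4.22 and 4.47, and fell to 0.487 (-1.04 ± 0.17, adjusted p = 3.53e-05, edgeR). For each of these genes both libraries labelled Chd4 shRNA lay below every other library of the study. Both were lower in all 20 other settings and called in 18 of them. On the ERCC scale with TMM scaling, on which the median expressed gene was 0.18 higher, Socs3 was at -1.08 (adjusted p = 0.0790) and Pim1 at -0.84 (adjusted p = 0.189, edgeR). With plain ERCC sums, on which that median was 0.59 higher, they were at -0.66 (adjusted p = 0.0690) and -0.43 (adjusted p = 0.240, edgeR).

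Stat3 went the other way. It stood at 3.14 and 2.87 in the scrambled libraries and at 4.82 and 4.90 in those labelled Chd4 shRNA, above all other libraries while background is included. Above background the levels were 2.98 and 2.66 against 3.73 and 3.72, and BRM014 library 1 stood higher, at 4.12. The rise was 1.62-fold (log2 fold change 0.69 ± 0.15, adjusted p = 0.000575, edgeR). This direction rests on the scale: with TMM over all genes past the filter, which placed the median expressed gene at -1.35, Stat3 was at -0.64 (adjusted p = 0.000424, edgeR), and all 4 expressed members were called lower. The change was 0.89 on the ERCC scale with TMM scaling (adjusted p = 0.151) and 0.31 with sizes from genes 3-fold above background (adjusted p = 0.0885, edgeR). Background accounts for 23.4% of the mean Stat3 count in the libraries labelled Chd4 shRNA and 6.01% in the scrambled ones. With background subtracted the change was 0.63 ± 0.16 (adjusted p = 0.00258, edgeR).

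**Figure D2:**
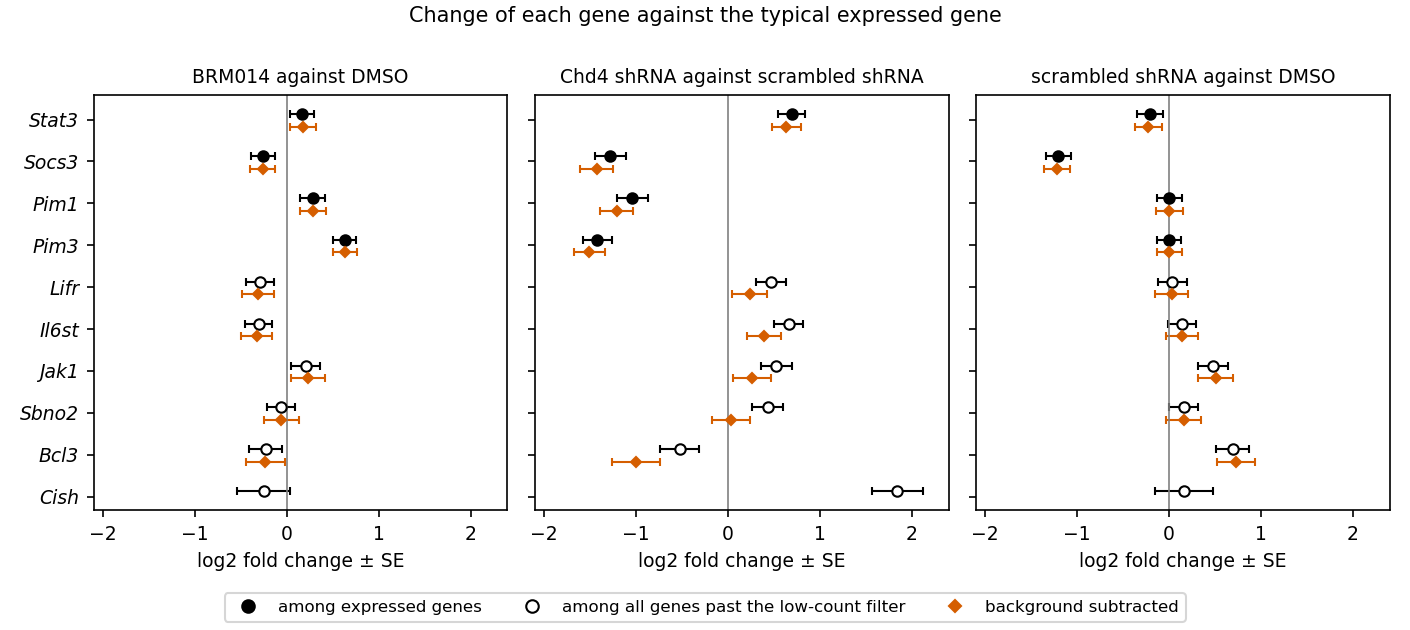
Log2 fold change of each gene with its SE in 3 comparisons, with open circles for the 6 genes tested among all genes past the low-count filter and diamonds for values after background subtraction. In the middle panel Socs3, Pim1, Pim3 and Bcl3 lie left of 0 by both measures, and the receptor and kinase genes move towards 0 after subtraction.

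Subtraction made the 3 falls somewhat larger. Pim3 was then at -1.51 ± 0.17, Socs3 at -1.43 ± 0.18 and Pim1 at -1.21 ± 0.18 on the log2 scale, with adjusted p of 4.89e-07, 2.22e-06 and 2.05e-05 (edgeR). Background makes up 20.4% to 26.2% of the mean counts of these 3 genes in the libraries labelled Chd4 shRNA and at most 2.02% in each other group.

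The upstream members, Lifr, Il6st and Jak1, had higher scaled counts in the libraries labelled Chd4 shRNA, but this did not outlast the subtraction. Lifr stood at 2.99 and 2.04 in scrambled and 3.36 and 3.59 in the libraries labelled Chd4 shRNA (log2 fold change 0.46 ± 0.16, adjusted p = 0.0104, edgeR). Il6st stood at 1.98 and 2.00 against 2.83 and 3.47 (0.66 ± 0.16, adjusted p = 0.000313, edgeR), and Jak1 at 2.11 and 2.35 against 3.34 and 3.09 (0.53 ± 0.17, adjusted p = 0.00542, edgeR). The call of Lifr ended without scrambled library 3 (0.21) or library 4 labelled Chd4 shRNA (0.42), and that of Jak1 without library 1 labelled Chd4 shRNA (0.49). In that fit 74.6% of all genes were called higher and 5.5% lower, with a median of 1.73, so a rise there is what most genes showed. Of the 10 members, 6 were higher and 4 lower in it.

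With background subtracted the values were 0.24 ± 0.19 for Lifr, 0.39 ± 0.18 for Il6st and 0.26 ± 0.21 for Jak1, with adjusted p of 0.359, 0.104 and 0.343 (edgeR). Background makes up 32.7%, 36.1% and 35.3% of their mean counts in the libraries labelled Chd4 shRNA. Sbno2 moved the same way: 0.43 ± 0.17 before (adjusted p = 0.0178) and 0.04 ± 0.21 after (adjusted p = 0.910, edgeR). Its first call also ended without library 1 labelled Chd4 shRNA (0.29) or scrambled library 3 (0.25). In the subtracted fit of 17626 genes, which held 9 members, 1 was called higher and 4 lower, beside 23.5% and 11.7% of those genes.

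Bcl3 was the fourth gene with a fall. It stood at 3.41 and 4.52 in scrambled and at 2.73 and 2.77 in the libraries labelled Chd4 shRNA, with 42 counts in each of the latter. The log2 fold change was -0.53 ± 0.21 (adjusted p = 0.0221) before subtraction and -0.998 ± 0.26 (adjusted p = 0.00459, edgeR) after it. The unsubtracted call was lost when either library labelled Chd4 shRNA (-0.49 and -0.53) or scrambled library 3 (-0.31) was left out, and with plain ERCC sums the value was 0.06.

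Cish rose in scaled counts, from 16 and 16 counts in scrambled to 43 and 38. In the latter libraries background alone would give 43.7 and 46.4. Its log2 fold change of 1.84 ± 0.28 (adjusted p = 6.27e-07, edgeR) was close to the median of 1.73 over all genes in that fit.

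**Figure D3:**
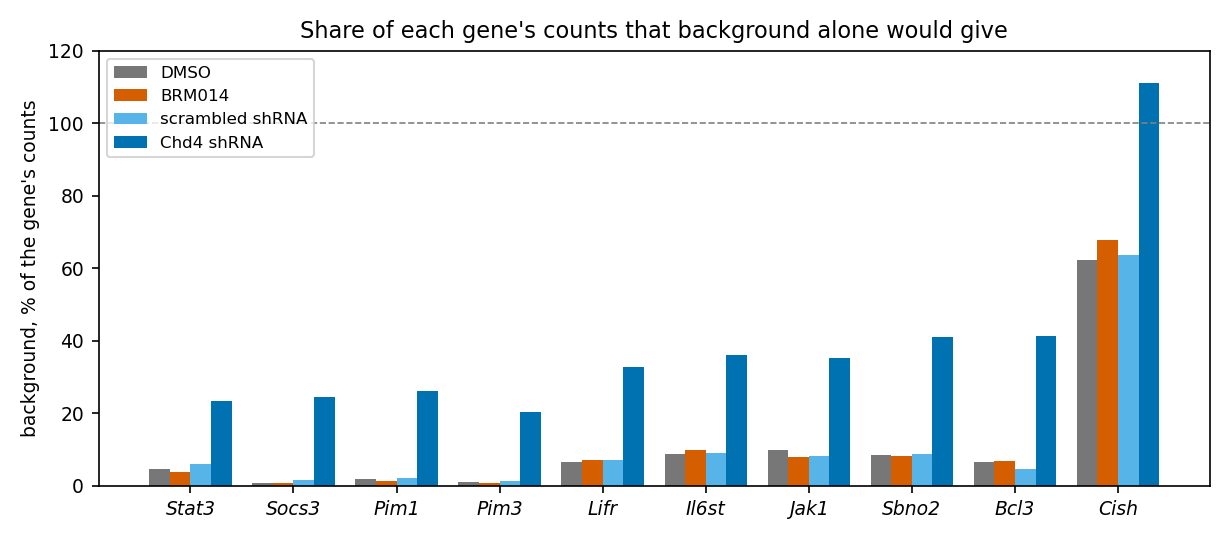
Share of each gene's mean count that the receptor-gene background would give for its exon length, in percent, by group; bars start at 0 and the dashed line marks 100%. The share is 20.4% to 41.3% for 9 genes in the libraries labelled Chd4 shRNA and under 10% for them elsewhere, while Cish passes 100% there.

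Gene span moved with these changes, and its part in them was not tested. The 3 expressed members that fell span 3.54 to 5.36 kb and Stat3 spans 54.4 kb. Among the 1843 expressed genes over 2 and up to 10 kb long, the median log2 fold change in this comparison was -0.14, with 27.3% called lower and 14.3% higher. Among the 757 over 50 kb it was 0.29, with 12.3% lower and 41.7% higher. Pim3, Socs3 and Pim1 each lay below the lower quartile of their span class (-0.44), and Stat3 lay above the upper quartile of its class (0.60). Lifr and Jak1 span 106.9 and 112.9 kb.

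The effect of BRM014 differed from that of the Chd4 shRNA label at the expressed members. The difference, BRM014 effect minus Chd4 shRNA effect on the log2 scale, was 2.05 ± 0.20 for Pim3, 1.32 ± 0.21 for Pim1 and 1.02 ± 0.21 for Socs3. The adjusted p were 6.47e-08, 6.96e-05 and 0.000785 (edgeR). Pim3 was called in opposite directions by the 2 treatments. For Stat3 the difference was -0.53 ± 0.20 (adjusted p = 0.0443, edgeR). It was not called in DESeq2 (adjusted p = 0.0772), after subtraction (adjusted p = 0.103), or without any one of 5 of the 8 libraries, and it was 0.87 with TMM over all genes. Thus 3 of 4 were higher and 1 of 4 lower, beside 15.4% of expressed genes in each direction. Of the 3 higher genes, Pim3 alone was still called with ERCC sizes. The treatments also differ in duration, virus and puromycin, so the cause of a difference cannot be told apart.

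The control groups were not alike for Socs3. It stood at 10.5 and 12.2 in scrambled and 24.3 and 27.8 in DMSO, so the scrambled level was 0.433 of that in DMSO (log2 fold change -1.21 ± 0.14, adjusted p = 2.48e-06, edgeR). The Chd4 shRNA fall therefore started from a scrambled level already below those of DMSO and BRM014. The difference between the controls was not called on the ERCC scale with TMM scaling (-1.43, adjusted p = 1) or with plain ERCC sums (-0.78, adjusted p = 0.172, edgeR). Pim1 and Pim3 had nearly equal mean levels in both controls, 8.92 against 8.89 and 15.0 against 15.0, with log2 fold changes of 0.00 ± 0.14 and -0.00 ± 0.13 (adjusted p = 0.992 and 0.993, edgeR). Stat3 had a log2 fold change of -0.21 ± 0.14 (adjusted p = 0.361, edgeR). So 0 of 4 were higher and 1 of 4 lower, beside 7.11% and 6% of expressed genes.

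Among the low members Bcl3 was higher in scrambled than in DMSO, where it stood at 2.66 and 2.26. The log2 fold change was 0.69 ± 0.18 (adjusted p = 0.0206, edgeR), lost without scrambled library 3 (0.48, adjusted p = 0.321) or DMSO library 2 (0.57, adjusted p = 0.0924, edgeR). It was also lost on both ERCC scales (0.56, adjusted p = 1, and 1.13, adjusted p = 0.0585), with TMM over all genes (0.54, adjusted p = 0.0821) and with no filter on low counts (0.69, adjusted p = 0.0845, edgeR). Jak1 had 0.48 ± 0.16 (adjusted p = 0.101, edgeR) and passed only without DMSO library 2 (0.77, adjusted p = 0.00861). Of all 10 members 1 was higher and 1 lower, beside 2.55% and 1.24% of the genes past the filter. The control groups differ in virus, puromycin and time at once, which cannot be told apart, and this comparison shares its libraries with the other comparisons.

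The rest of the pathway was read from 5 lists of other genes. Of the 16 ligands and other receptors of the gp130 family, 0 were among the expressed genes. Lif, the ligand itself, lay 3.99-fold above background, and Osm, a related cytokine, 3.59-fold. Lif stood at 1.16 and 1.17 in DMSO, 0.772 and 0.775 in BRM014, 1.39 and 1.42 in scrambled and 1.70 and 1.54 in the libraries labelled Chd4 shRNA. These levels include background, which alone would give 29.6 of 46 and 31.4 of 41 Lif counts in the libraries labelled Chd4 shRNA. In scrambled it would give 5.76 of 53 and 8.01 of 54, so the levels do not show a rise of Lif. Lif and Osm were named after their values were seen. Among all genes past the default filter, 15 of the 16 were tested, and 13 were called higher in the libraries labelled Chd4 shRNA, with a median of 1.79. In that fit 74.6% of all genes were higher, with a median of 1.73. After BRM014 0 of the 15 were called in either direction by edgeR.

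After BRM014 none of the expressed kinases and adaptors (5 of 10 listed), other STAT genes (2 of 6) or other negative regulators (5 of 13) was called. Of 18 other genes known to respond to LIF or STAT3, 8 were expressed, 1 was higher and 2 were lower, beside 3.1% higher and 4.59% lower among all expressed genes. Their median was 0.07 against 0.01 over all expressed genes. Klf4, a pluripotency factor known to respond to STAT3, stood at 16.0 and 20.4 in DMSO and at 12.4 and 10.9 in BRM014 (log2 fold change -0.64 ± 0.14, adjusted p = 0.00370, edgeR). Nr0b1, which encodes the nuclear receptor DAX1, stood at 9.99 and 9.63 against 6.90 and 7.08 (-0.49 ± 0.13, adjusted p = 0.0203, edgeR). Mcl1, an anti-apoptotic relative of BCL2, rose from 22.6 and 26.3 to 32.8 and 33.6 (0.44 ± 0.13, adjusted p = 0.0378, edgeR). All 3 calls were lost on both ERCC scales, where the changes were -0.57 and -0.66 for Klf4, -0.35 and -0.49 for Nr0b1 and 0.53 and 0.43 for Mcl1. Among all genes past the default filter the adjusted p was 0.0535 for Nr0b1 and 0.0680 for Mcl1, and with TMM over all genes that of Nr0b1 was 0.0941 (edgeR). The call of Klf4 was also lost without BRM014 library 2 (-0.53, adjusted p = 0.170), those of Nr0b1 and Mcl1 without either BRM014 library, and that of Mcl1 also without DMSO library 1 (0.32, adjusted p = 0.158, edgeR) or either library labelled Chd4 shRNA (0.43 and 0.44).

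In the libraries labelled Chd4 shRNA 4 of those 8 responsive genes were lower and 1 was higher, beside 20.5% lower and 19.4% higher among all expressed genes. Their median was -0.42 against -0.01 over all expressed genes. Nr0b1 stood at 12.9 and 15.1 in scrambled and at 2.50 and 2.80 in the libraries labelled Chd4 shRNA, a fall to 0.189 (log2 fold change -2.40 ± 0.18, adjusted p = 4.56e-10, edgeR). That fall is measured from a scrambled level itself called higher than DMSO (0.52 ± 0.13, adjusted p = 0.00908, edgeR), where Nr0b1 stood at 9.99 and 9.63. Mcl1 stood at 28.2 and 29.97 against 13.5 and 14.6 (-1.05 ± 0.14, adjusted p = 4.50e-06, edgeR). Klf4 stood at 19.4 and 19.1 against 12.6 and 13.8 (-0.55 ± 0.15, adjusted p = 0.00465, edgeR), and its call ended without library 1 labelled Chd4 shRNA (-0.46, adjusted p = 0.0877). On the ERCC scales Mcl1 and Klf4 were not called, while Nr0b1 was. Mcl1 was thus called higher after BRM014 and lower with the Chd4 shRNA label, as Pim3 was, while Klf4 and Nr0b1 were lower in both. The BRM014 call of Mcl1 was the less stable, held in 10 of 21 other settings against 18 of 21 for Pim3.

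Icam1, an adhesion molecule, was higher (0.40 ± 0.16, adjusted p = 0.0425, edgeR) and Junb, an AP-1 transcription factor, lower (-0.49 ± 0.19, adjusted p = 0.0429, edgeR). Both lay close to the threshold: neither was called in DESeq2 or without either library labelled Chd4 shRNA or scrambled library 3, and Junb was named after its values were seen. With plain ERCC sums Klf4 and Junb were at 0.07 and 0.08. With TMM over all genes Icam1 was at -0.94. Background alone would give 29.7 of 138 and 31.5 of 136 Icam1 counts in the libraries labelled Chd4 shRNA. In scrambled it would give 5.78 of 165 and 8.03 of 130, and the Icam1 rise of 0.40 includes this background.

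In this comparison 1 of 5 expressed kinases and adaptors was lower, and 1 of 2 other STAT genes and 1 of 5 other negative regulators were higher, beside 20.5% lower and 19.4% higher among all expressed genes. Jak3, a JAK kinase best known from lymphocytes, stood at 5.58 and 6.10 in scrambled and at 3.82 and 3.57 in the libraries labelled Chd4 shRNA (log2 fold change -0.66 ± 0.16, adjusted p = 0.00210, edgeR). Stat2, known from interferon signalling, stood at 3.58 and 3.27 against 5.19 and 4.82 (0.55 ± 0.14, adjusted p = 0.00390, edgeR). Ptpn6, the phosphatase SHP-1, stood at 3.87 and 4.23 against 7.13 and 5.47 (0.64 ± 0.17, adjusted p = 0.00408, edgeR). Both rises include background. It would give 40.3 of 191 and 42.8 of 175 Stat2 counts in the libraries labelled Chd4 shRNA, and 7.85 of 186 and 10.9 of 170 in scrambled. For Ptpn6 it would give 19.1 of 124 and 20.2 of 94 counts, and 3.71 of 95 and 5.16 of 104 in scrambled. Without library 1 labelled Chd4 shRNA Ptpn6 was at 0.46 (adjusted p = 0.113, edgeR). The call of Jak3 ended on both ERCC scales (-0.47 and -0.07). Those of Stat2 (0.74, adjusted p = 0.254) and Ptpn6 (0.82, adjusted p = 0.214, edgeR) ended on the ERCC scale with TMM scaling. These losses are not the only ones: in either direction, Stat2 was called in 17 of its 19 other settings and Ptpn6 in 16 of 19. The list medians were 0.08 for kinases and adaptors, 0.25 for other STAT genes and -0.03 for negative regulators. With TMM over all genes Stat2 and Ptpn6 were at -0.79 and -0.70, as Stat3 was below 0 on that scale.

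**Figure D4:**
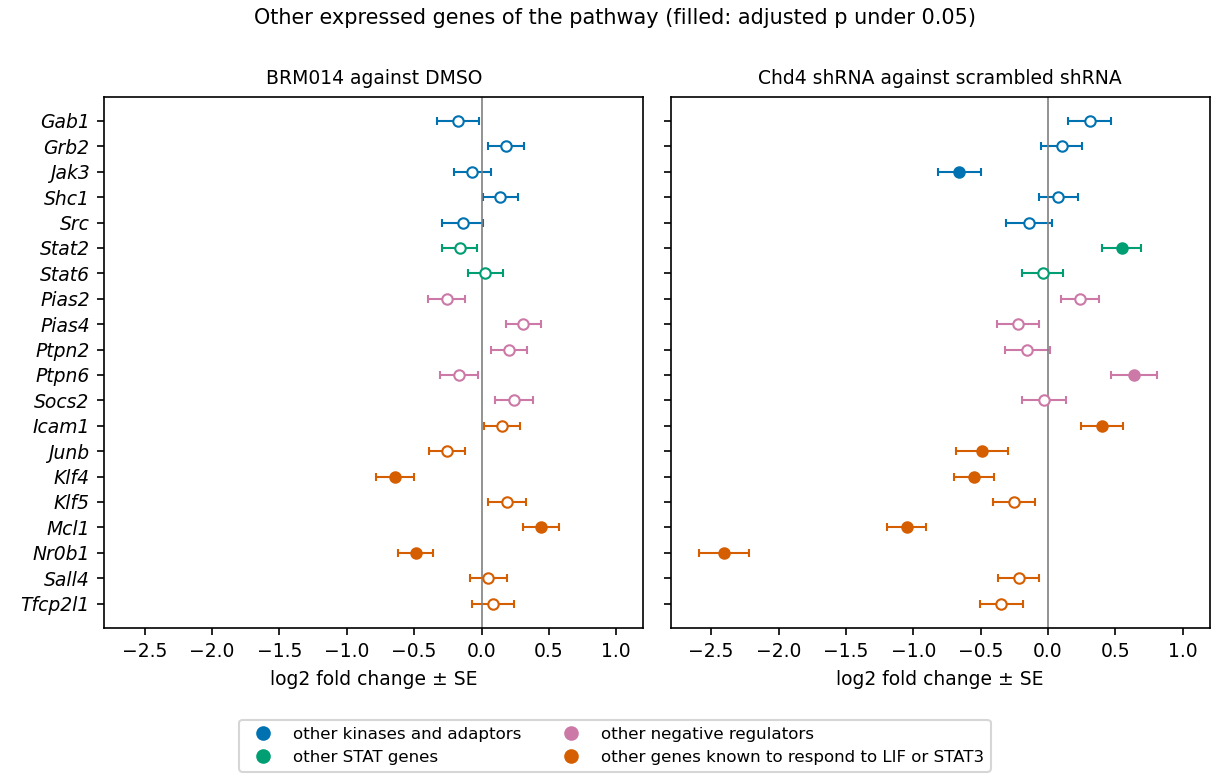
Log2 fold changes with SEs of the 20 other expressed pathway genes, coloured by list, with filled points for adjusted p under 0.05 in edgeR. In the BRM014 panel only Klf4, Mcl1 and Nr0b1 are filled; in the Chd4 shRNA panel Nr0b1 lies furthest from 0 at -2.40.

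Some counts may be shared with neighbours, because the strand used in counting is not given in the sources used here. Stat3 overlaps the end of Stat5a on the other strand (mean counts 411 and 61.9), and the start of Pim1 overlaps the predicted gene Gm26885 (351 and 108). Bcl3 overlaps Gm16174 on the other strand (77 and 28.9). Socs3, Pim3, Lifr, Il6st and Sbno2 overlap no other gene of the matrix.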

How the data were processed

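Nascent RNA was measured in 8 libraries. The authors deposited read counts per gene, which were used as given. Per the submitters' processing notes, the tools were Trim Galore 0.6.4, STAR 2.7.1a, featureCounts and edgeR 3.32.1, with build mm10. The strand counted and the treatment of reads with several alignments are not given in the sources used here. Another 40 samples, of chromatin immunoprecipitation, were not used here. Columns numbered 4 (Chd4 shRNA) and 3 (scrambled) match no title number and were placed by group name. Within each group the libraries were not identical and differed beyond counting noise.

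Background was the mean count per kb over 1971 genes named Olfr or Vmn (6007.8 kb of exon). Expressed genes had a mean at least 10-fold above it. All 8 libraries entered 1 fit in edgeR 4.0.16 (R 4.3.3), with TMM scaling of the expressed genes; SEs come from the F statistic. The fit was tested on simulated data. Alternatives used ERCC sizes (92 RNAs), TMM over all genes, other filters (3-fold, 30-fold or none), DESeq2 1.42.0, a robust fit, background subtraction, a comparison's own 4 libraries, a replicate block, and each library left out. Subtraction over 3-fold genes and the 3-fold set with the expressed genes' sizes were added after seeing the data. With 2 libraries against 2, an exact permutation test cannot go below 0.333. The members and lists were chosen with earlier results of these data known. All 10 members were described, and of each list the genes called in BRM014 against DMSO or in Chd4 shRNA against scrambled shRNA, up to the 4 with the smallest p in each. Figures were drawn with matplotlib 3.10.9.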

Additional observations from a re-analysis of the deposited data

How the results depend on the processing

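Of 102 gene values that lost their call in an alternative, 56 were in the Chd4 shRNA comparison and 25 in that of BRM014 with DMSO, and 12 called values changed sign. With TMM over all genes these were Stat3 (-0.64), Lifr (-0.87), Il6st (-0.68), Jak1 (-0.81), Sbno2 (-0.91), Icam1 (-0.94), Ptpn6 (-0.70) and Stat2 (-0.79) in the Chd4 shRNA comparison and Stat3 (0.87) in the difference of effects. With plain ERCC sums they were Bcl3 (0.061), Junb (0.082) and Klf4 (0.074) in the Chd4 shRNA comparison. Among the 4 expressed members, both ERCC scales left 0 called higher in BRM014 against DMSO, 1 lower in the Chd4 shRNA comparison, 1 higher in the difference and 0 lower in scrambled against DMSO. The ERCC scale with TMM also left 0 higher in the Chd4 shRNA comparison and 0 lower in the difference. For that comparison the count called higher was 0 with TMM over all genes and with the 3-fold and 30-fold sets; in the 30-fold set Stat3 was not tested. The count called lower in the difference was 0 under those 3 settings, with DESeq2 and with either subtraction. Leaving out 1 library each gave 0 to 2 called higher for BRM014 (0 without BRM014 library 1, 2 without DMSO library 2) and 0 to 1 lower in the difference; the other 6 counts did not move. Except where a construction shows it, the cause of these changes was not tested. With the replicate number as a replicate block for BRM014 and DMSO, Pim3 was at 0.63 (adjusted p = 0.000874, edgeR), 1 member was called higher and 0 lower, and 302 expressed genes were higher and 445 lower, against 256 and 379 without it. The numbers are not known to pair the cultures: deviations of libraries numbered 1 correlated at -0.22. No paired analysis was possible for the shRNA groups because their columns share only the number 1. Cish and Bcl3 had the lowest counts of the members, at 16 to 43 and 42 to 106, and Cish also lay at background.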
